A study of Homo sapiens with 12 samples.

Results

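The genes described here are the well-expressed members of the ZNF family, the largest named group of human zinc finger genes. A gene was taken as a member when its symbol was ZNF followed by a number and at most 1 letter, and when its mean level over the 3 untreated samples was at least 10 CPM, the unit that scales a gene's count to the sum of its library. The members were thus chosen by their level in untreated cells. The rule found 193 members among 601 ZNF rows and 63677 genes in all. Another 244 ZNF genes below 10 CPM had enough counts to be tested, and 164 ZNF rows had too few, of which 97 had no count in any sample. All 193 members passed the filter on low counts, and the lowest count of any member in any library was 12. Just above the threshold lay ZNF174, ZNF140 and ZNF316 at 10.1 CPM each, and just under it lay ZNF600 at 9.98, ZNF74 at 9.85 and ZNF700 at 9.77 CPM.

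RNA was sequenced from Huh7, a human hepatocellular carcinoma cell line, in 4 groups of 3 libraries. Untreated cells received medium only, and the other groups were exposed for 6 h to graphene oxide nanosheets (GO) at 400 µg/mL, to GO carrying the ginseng saponin Rg3 (GO-Rg3) at 400 µg/mL, or to GO-Rg3 loaded with the anthracycline doxorubicin (GO-Rg3-DOX) at 100 µg/mL. GO-Rg3-DOX thus differed from GO-Rg3 in dose as well as in doxorubicin. The study also reports that flake size and thickness changed with Rg3 and again with doxorubicin, and that Rg3 made the surface charge less negative. The effects of the dose, of the attached compounds and of the flakes cannot be told apart. The labels number the replicates without saying whether they were separate cultures, so p-values measure the spread between these samples, which may be technical.

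Most ZNF proteins bind DNA through tandem C2H2 zinc fingers, short loops in which a pair of cysteines and a pair of histidines hold a zinc ion. Many also carry a KRAB domain, which recruits the corepressor TRIM28 (KAP1) and, through it, the histone methyltransferase SETDB1, HP1 proteins and the NuRD complex, so that the bound DNA is packed into repressed chromatin. KRAB zinc finger genes lie mostly in clusters on chromosome 19 and are known for silencing transposable elements, while other ZNF proteins act as promoter-binding activators, in RNA processing or in translation.

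Library totals ranged from 27802871 to 38877420 counts. The hepatocyte genes ALB, AFP, APOA1, APOB, TTR, SERPINA1, HNF4A and FOXA2 were expressed in all 12 libraries, the lowest value being 13.8 CPM for FOXA2. Markers of leukocytes (PTPRC, CD68), of endothelium (PECAM1, VWF) and COL1A1 stayed under 1 CPM, and the fibroblast gene COL1A2 lay between 1.78 and 3.60 CPM. Mitochondrially encoded genes took 5.31 to 6.28% of the counts in untreated cells, 6.89 to 7.42% after GO-Rg3, 12.1 to 24.1% after GO and 12.8 to 19.4% after GO-Rg3-DOX. Replicate 1 of GO and replicate 1 of GO-Rg3-DOX held the most mitochondrial counts of their groups and stood apart from the other replicates. Some of the results that rest on them are also given without them. Replicates 1 and 2 of GO-Rg3 differed as well, with a mean chi-square per gene of 70.8 between their counts. For replicate 1 of GO-Rg3-DOX it was 57.3 against replicate 2 and 74.4 against replicate 3.

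The members as a group were close to the untreated level in GO-Rg3, slightly lower in GO and far lower in GO-Rg3-DOX. They took 0.593, 0.603 and 0.589% of the counts in untreated cells, 0.427, 0.570 and 0.559% after GO, and 0.591, 0.653 and 0.624% after GO-Rg3. After GO-Rg3-DOX their share was 0.202, 0.245 and 0.251%, under every library of the other groups. The median level of a member, in CPM scaled by the TMM method (trimmed mean of M-values), was 20.1, 19.9 and 19.97 in untreated cells and 17.1, 18.5 and 18.3 after GO. It was 19.6, 21.5 and 21.2 after GO-Rg3 and 7.37, 8.16 and 8.54 after GO-Rg3-DOX, so that the GO-Rg3-DOX libraries did not overlap with any other group on either scale. The GO libraries were also apart, under every untreated and GO-Rg3 library on both scales, but by far less. Gene by gene, all GO libraries lay under all untreated ones for 87 of the 193 members. The same held for 3864 of the 9223 tested genes at 10 CPM or more in untreated cells, so the lower GO level was not particular to the members. The untreated values were used to choose the members and are a description. The lowest GO value in both series was replicate 1, with 24.1% mitochondrial counts, and the part of mitochondrial RNA in its lower value was not tested. These are shares of bulk RNA, in which less RNA per cell and fewer cells cannot be told apart.

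**Figure D1:**
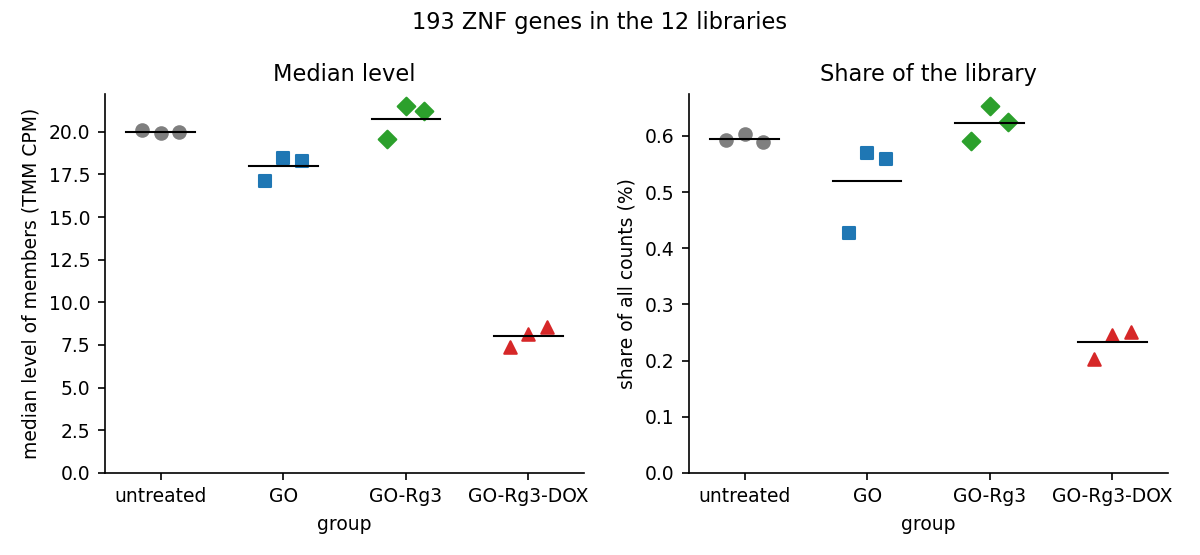
Median TMM-scaled CPM of the 193 ZNF genes (left) and their share of all counts in percent (right), by group; each point is 1 library and each line the mean of 3. The GO-Rg3-DOX libraries lie at 7.37 to 8.54 CPM and 0.202 to 0.251%, under every other library.

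GO-Rg3-DOX was compared with GO-Rg3 to ask how the members behaved when the carrier was loaded with doxorubicin, by the quasi-likelihood test of edgeR, its p-values adjusted by the Benjamini-Hochberg method over all 17092 genes tested. A gene was called at an adjusted p below 0.01 with an absolute log2 fold change above 1. By that rule 132 of the 193 members were lower in GO-Rg3-DOX and 0 were higher. Among all genes tested 18.1% were called lower and 12.6% higher, and among the 9223 genes at 10 CPM or more in untreated cells 21.3% were lower and 7% higher. The median log2 fold change of the members was -1.36, against -0.00 over all genes tested and -0.09 over the 9030 other genes at 10 CPM or more. At the adjusted p alone, without a fold threshold, 167 members fell and 3 rose, against 5074 and 4682 of the 17092 genes tested. Among the 9223 genes at 10 CPM or more the counts were 3603 and 2695. Over all genes tested, 3097 were called lower and 2146 higher, a split that became 4983 and 889 when libraries were scaled by their totals alone, with the members' median at -1.80. Without both libraries with the most mitochondrial counts the members' median was -1.33. Log2 fold changes of the members ran from -4.02 to 0.90, and 185 of the 193 were negative, against 8569 of the 17092 genes tested.

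**Figure D2:**
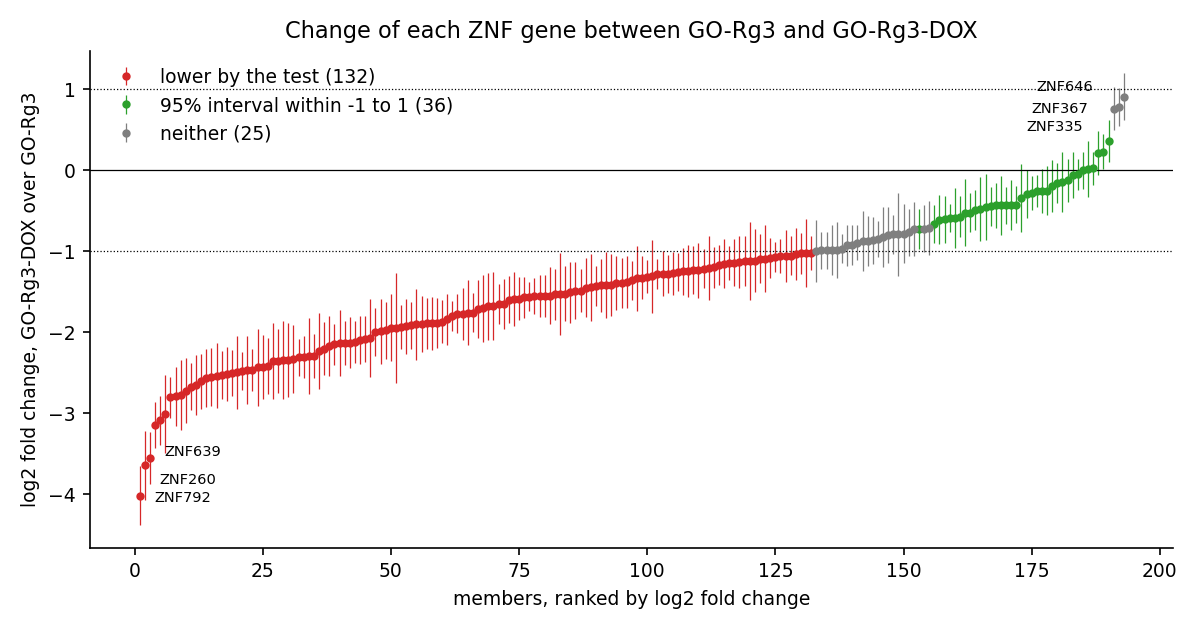
Log2 fold change of GO-Rg3-DOX over GO-Rg3 (vertical axis) for the 193 ZNF genes in order of that value, with 95% intervals from the edgeR fit; colors mark 132 members called lower, 36 whose interval lay within -1 and 1, and 25 that were neither. The values run from -4.02 for ZNF792 to 0.90 for ZNF646.

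**Figure D3:**
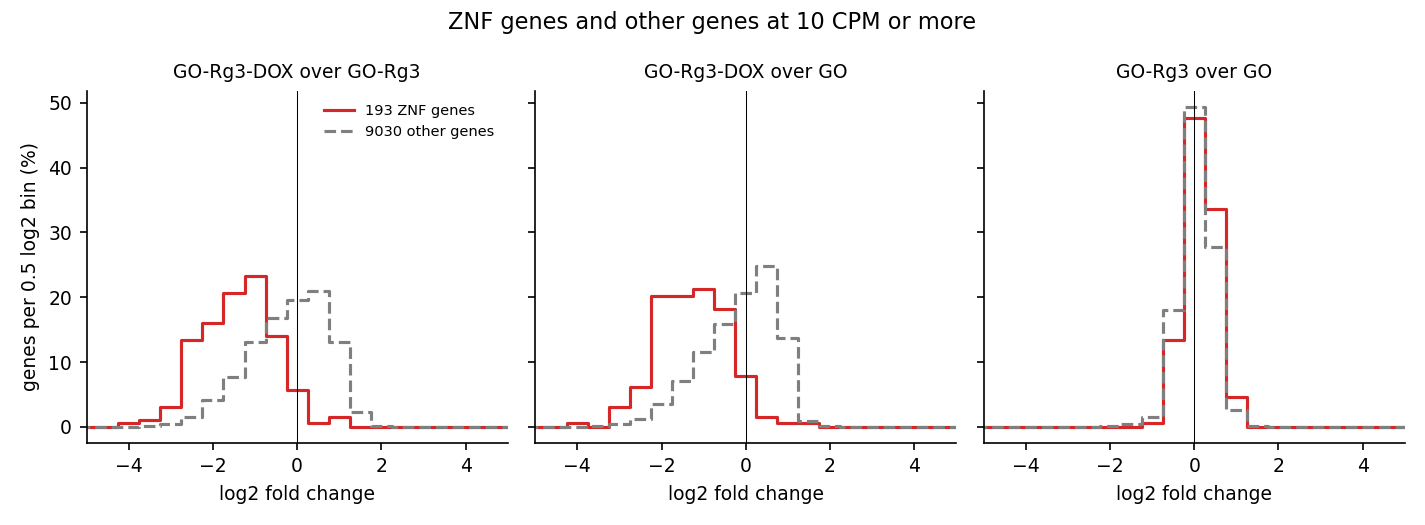
Share of genes in percent per bin of 0.5 log2 fold change, for the 193 ZNF genes (solid) and 9030 other genes at 10 CPM or more in untreated cells (dashed), in 3 comparisons between treated groups. The ZNF curve lies left of the other genes in both comparisons of GO-Rg3-DOX, with medians of -1.36 and -1.26, and largely over them in GO-Rg3 against GO, with a median of 0.14.

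The 10 members with the lowest log2 fold changes in GO-Rg3-DOX against GO-Rg3 were ZNF792, ZNF260, ZNF639, ZNF691, ZNF248, ZNF14, ZNF445, ZNF606, ZNF746 and ZNF660. ZNF792, a KRAB gene at chr19:35447258-35455133 on the minus strand (GRCh37), had levels of 9.89, 10.2 and 9.19 CPM after GO-Rg3 and 0.494, 0.503 and 0.801 CPM after GO-Rg3-DOX. All 3 GO-Rg3-DOX libraries were far under the lowest GO-Rg3 library, a 16.2-fold lower level (log2 fold change -4.02, SE 0.17, edgeR adjusted p = 1.2e-10). ZNF260, at chr19:37001589-37019173 on the minus strand, was at 19.6, 24.1 and 21.6 CPM after GO-Rg3 and at 2.14, 1.55 and 1.56 CPM after GO-Rg3-DOX. Its groups did not overlap either, and the log2 fold change was -3.64 (SE 0.20, edgeR adjusted p = 1e-09). ZNF639, at chr3:179040819-179056371 on the plus strand, went from 30.0, 38.1 and 32.97 CPM to 2.72, 2.48 and 3.43 CPM, a log2 fold change of -3.55 (SE 0.15, edgeR adjusted p = 1.1e-10). ZNF691, at chr1:43312244-43318148 on the plus strand, was steady at 11.1, 11.3 and 11.8 CPM after GO-Rg3 and lay at 1.36, 1.33 and 1.18 CPM after GO-Rg3-DOX, 8.83-fold lower.

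ZNF445, a KRAB protein that helps ZFP57 maintain genomic imprints, was the most abundant of the 10 in CPM. Its levels were 79.1, 99.8 and 87.1 CPM after GO-Rg3 and 12.03, 13.7 and 12.4 CPM after GO-Rg3-DOX, without overlap, and the level was 6.97-fold lower. ZNF746 (PARIS), known as a repressor of the gene for PGC-1alpha, was at 16.6, 11.3 and 14.2 CPM against 2.55, 1.33 and 2.33 CPM (log2 fold change -2.77, SE 0.20, edgeR adjusted p = 1.7e-08). The remaining 4 of the 10, ZNF248, ZNF14, ZNF606 and ZNF660, had log2 fold changes of -3.09, -3.01, -2.79 and -2.72, and none of them overlapped between the groups. All 10 were also called lower in GO-Rg3-DOX against GO, by log2 fold changes from -3.95 for ZNF792 to -2.43 for ZNF606. Both comparisons share the GO-Rg3-DOX libraries.

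ZNF281, a protein that binds GC-rich promoters and is linked to stem cell and epithelial-mesenchymal programs, was also among the strongly lowered members. It was at 78.7, 91.2 and 80.7 CPM after GO-Rg3 and at 12.2, 11.6 and 15.5 CPM after GO-Rg3-DOX. That is a 6.37-fold lower level (log2 fold change -2.67, SE 0.14, edgeR adjusted p = 5.5e-10), with groups far apart.

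**Figure D4:**
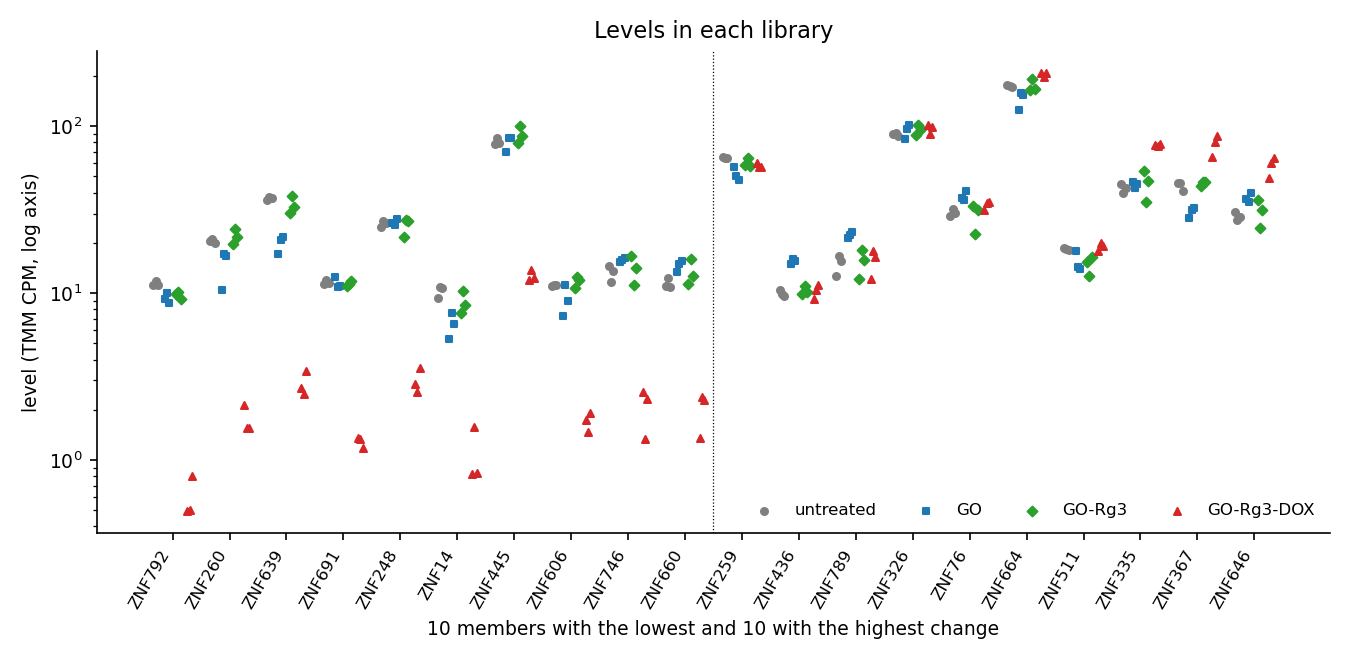
TMM-scaled CPM (log axis) of the 10 members with the lowest and the 10 with the highest log2 fold change in GO-Rg3-DOX against GO-Rg3, left and right of the dotted line; each point is 1 of 3 libraries per group. On the left the GO-Rg3-DOX libraries lie under all others, and on the right ZNF335, ZNF367 and ZNF646 lie above them.

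The promoters of the 2 lowest and the 2 highest members and of ZNF281 are shown to compare the sequence at the starts of genes that moved in opposite directions. They come from RefSeq (GRCh38.p14), which held a promoter for 162 of the 193 members, and run from 250 bases before to 50 bases after the gene's start, 5′ to 3′ on the gene's strand. Capitals mark every match, on either strand, to 9 short patterns, and a run of capitals can hold overlapping matches. The patterns were the GC box GGGCGG, the CCAAT box CCAAT, the TATA box TATAAA, the ETS site CCGGAAG, the NRF1 site (GCGC, any base, then TGCGC), the E2F site TTTNGCGC, the YY1 site AAGATGGCG, ACTACAA from the ZNF143 site, and the cAMP response element TGACGTCA. The positions are chr19:34964180-34964479, minus strand, for ZNF792, chr19:36528222-36528521, minus strand, for ZNF260, chr1:200409987-200410286, minus strand, for ZNF281, chr9:96418321-96418620, minus strand, for ZNF367 and chr16:31074172-31074471, plus strand, for ZNF646.
ZNF792: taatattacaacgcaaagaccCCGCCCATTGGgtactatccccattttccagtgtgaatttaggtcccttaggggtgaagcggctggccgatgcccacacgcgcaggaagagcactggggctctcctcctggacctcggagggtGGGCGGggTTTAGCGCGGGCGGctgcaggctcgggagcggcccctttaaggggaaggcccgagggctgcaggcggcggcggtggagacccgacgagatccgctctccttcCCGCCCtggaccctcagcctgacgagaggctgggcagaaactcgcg
ZNF260: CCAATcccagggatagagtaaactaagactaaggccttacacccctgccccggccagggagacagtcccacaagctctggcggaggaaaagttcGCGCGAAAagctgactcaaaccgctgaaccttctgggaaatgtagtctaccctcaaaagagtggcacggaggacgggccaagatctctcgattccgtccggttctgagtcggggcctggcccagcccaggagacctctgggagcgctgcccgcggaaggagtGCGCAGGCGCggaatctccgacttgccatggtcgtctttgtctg
ZNF281: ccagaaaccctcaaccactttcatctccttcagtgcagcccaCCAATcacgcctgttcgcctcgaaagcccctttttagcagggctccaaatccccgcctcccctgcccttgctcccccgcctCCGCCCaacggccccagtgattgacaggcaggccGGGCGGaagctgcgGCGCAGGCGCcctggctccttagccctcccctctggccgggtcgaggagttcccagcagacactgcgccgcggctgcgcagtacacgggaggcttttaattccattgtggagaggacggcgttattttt
ZNF367: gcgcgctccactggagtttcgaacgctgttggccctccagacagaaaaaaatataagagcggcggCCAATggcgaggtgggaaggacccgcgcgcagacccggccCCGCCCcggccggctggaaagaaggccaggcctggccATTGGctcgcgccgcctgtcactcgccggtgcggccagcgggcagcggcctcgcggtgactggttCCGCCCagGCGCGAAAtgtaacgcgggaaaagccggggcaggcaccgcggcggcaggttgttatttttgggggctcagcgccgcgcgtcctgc
ZNF646: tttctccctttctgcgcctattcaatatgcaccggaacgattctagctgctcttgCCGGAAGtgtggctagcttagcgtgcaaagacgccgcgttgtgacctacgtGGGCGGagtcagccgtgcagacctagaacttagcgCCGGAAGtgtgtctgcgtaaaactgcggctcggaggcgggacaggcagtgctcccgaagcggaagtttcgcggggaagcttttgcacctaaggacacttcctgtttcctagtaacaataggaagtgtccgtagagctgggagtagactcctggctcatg

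ZNF792 and ZNF367, the lowest member and one of the highest, both hold a GC box, a CCAAT box and an E2F pattern. Over the 162 matched members, 37.7% of the promoters held the ETS pattern, against 20.7% of the 7437 matched other genes at 10 CPM or more and 10.3% of all 35116 promoters. The CCAAT box was in 46.9, 36.3 and 34.6% and the GC box in 63.6, 69.7 and 45.0% of the same sets. The ACTACAA pattern was in 8.64, 3.76 and 2.77%. Split by the change in GO-Rg3-DOX against GO-Rg3, the ETS pattern was in 38.3% of 115 members called lower and in 25.9% of the 27 whose interval lay within -1 and 1, and the GC box in 62.6 and 66.7%. The median number of CpG dinucleotides was 22 among members called lower and 23 among those within the interval. A match to these letters is not a binding site, and no test was run on the shares.

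At the other end stood members with small changes and 3 that rose. For 36 of the 193 members the 95% interval of the log2 fold change in GO-Rg3-DOX against GO-Rg3 lay within -1 and 1, and 25 were neither called nor bounded in this way. The interval lay there for 7084 of the 17092 genes tested and for 5082 of the 9223 at 10 CPM or more. Of the 36, 13 fell past the adjusted p of 0.01 by less than the fold threshold, the lowest log2 fold change being -0.73 for ZNF252P. ZNF646 was at 36.4, 24.6 and 31.5 CPM after GO-Rg3 and at 48.9, 59.99 and 64.2 CPM after GO-Rg3-DOX, without overlap (log2 fold change 0.90, SE 0.14, edgeR adjusted p = 3.1e-05). ZNF367 was at 43.5, 46.6 and 46.5 CPM against 65.7, 80.9 and 87.6 CPM (log2 fold change 0.78, SE 0.11, edgeR adjusted p = 1.6e-05). ZNF335, a component of histone H3 lysine methyltransferase complexes that is needed for the growth of neural progenitors, was at 53.9, 35.2 and 47.0 CPM against 77.2, 75.7 and 77.8 CPM (log2 fold change 0.76, SE 0.13, edgeR adjusted p = 7.3e-05). These 3 genes rose by less than a doubling each, and their GO-Rg3-DOX libraries were above every untreated and GO library too. Scaled by library totals alone, which lowers the median of all genes to -0.45, their log2 fold changes were 0.47, 0.34 and 0.32 and missed the adjusted p of 0.01 in edgeR (0.022, 0.066 and 0.059). With an offset for GC content they were 0.54, 1.02 and 0.38, all past the adjusted p.

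The other 7 of the 10 highest changes were those of ZNF511 (0.36), ZNF664 (0.23), ZNF76 (0.21), ZNF326 (0.02), ZNF789 (0.02), ZNF436 (-0.00) and ZNF259 (-0.05), none past the adjusted p of 0.01. The sign of each of the 7 changed under at least 1 other processing. ZNF664 was the member with the highest CPM in untreated cells and was at 164, 192 and 168 CPM after GO-Rg3 and at 209, 197 and 208 CPM after GO-Rg3-DOX. Its groups were narrowly apart, with an edgeR adjusted p of 0.056. ZNF326, a subunit of the DBIRD complex that links RNA polymerase II elongation with splicing, was at 88.1, 101.5 and 96.5 CPM against 101.6, 89.9 and 99.1 CPM, with the groups overlapping throughout. ZNF259 (ZPR1), which binds the translation elongation factor eEF1A, was likewise level, at 58.9, 64.5 and 57.7 CPM against 60.6, 57.3 and 56.7 CPM. ZNF76, a close relative of the promoter activator ZNF143, was at 33.2, 22.6 and 31.5 CPM against 31.4, 34.6 and 35.2 CPM. The 5 most abundant members within the interval were ZNF664, ZNF106, ZNF592, ZNF326 and ZNF384, with log2 fold changes of 0.23, -0.61, -0.12, 0.02 and -0.59. Among these, ZNF106, an RNA-binding zinc finger protein, and ZNF384, known from fusion genes in leukemia, fell past the adjusted p but by less than the fold threshold (edgeR adjusted p = 0.0011 and 1.2e-05). Under library totals alone ZNF664, ZNF326 and ZNF259 had log2 fold changes of -0.22, -0.42 and -0.50, and the last 2 passed the adjusted p in edgeR (0.0091 and 0.00048). With the GC content offset ZNF664 and ZNF326 had values of 0.49 and 0.60 and passed it in the other direction, so their direction depends on the scaling.

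The 5 members with the highest CPM in untreated cells were ZNF664, ZNF207, ZNF146, ZNF24 and ZNF106. Per kilobase of the representative transcript their untreated levels were 40.4, 12.4, 30.8, 15.6 and 9.13 CPM. ZNF146, a protein made almost only of zinc fingers, fell from 102.3, 124.6 and 108 CPM after GO-Rg3 to 23.1, 20.02 and 24.5 CPM after GO-Rg3-DOX (log2 fold change -2.31, SE 0.11, edgeR adjusted p = 2.2e-10). ZNF207 (BuGZ), which loads BUB3 onto kinetochores, fell from 156, 180.5 and 168 CPM to 83.0, 76.0 and 80.9 CPM, 2.10-fold. ZNF24, a SCAN-domain protein known to repress VEGFA, fell from 88.7, 114 and 99.5 CPM to 40.5, 45.8 and 52.3 CPM, 2.18-fold. In these 3 genes the groups were apart. ZNF146 shares exon positions with ZNF565 on the opposite strand, and whether counting used the strand is not given in the sources used here.

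Members with known roles, among them KRAB proteins such as ZNF445, were sorted into 3 groups after their values had been seen. The counts are therefore descriptions, beside 68.4% lower among all members and 18.1% among all genes tested. Of 8 genes with roles in RNA, ribosomes or protein handling, 4 were called lower in GO-Rg3-DOX against GO-Rg3. ZNF473, which works with the U7 snRNP in forming the ends of histone mRNAs, went from 35.01, 36.1 and 32.5 CPM to 6.76, 5.46 and 6.37 CPM, 5.58-fold lower. ZNF346, a binder of double-stranded RNA, had a log2 fold change of -1.59, and ZNF451, a SUMO ligase that aids TDP2 in removing topoisomerase II from DNA, one of -1.28. ZNF207, described above, was the other. ZNF598, the ubiquitin ligase that marks collided ribosomes, was at 54.7, 25.6 and 40.97 CPM against 28.6, 29.8 and 29.9 CPM, an overlap across the wide GO-Rg3 range, with an edgeR adjusted p of 0.043. ZNF622, which acts in the maturation of the large ribosomal subunit, fell to a log2 fold change of -0.52 (edgeR adjusted p = 0.00071), within the interval.

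Of 9 genes tied to chromatin silencing or chromatin complexes, 6 were called lower. ZNF644, a partner of the histone methyltransferases G9a and GLP, had a log2 fold change of -1.94, from 67.3, 82.0 and 74.2 CPM to 15.2, 19.2 and 23.6 CPM. ZNF91, which represses SVA retrotransposons, had one of -1.42, from 36.8, 50.1 and 42.1 CPM to 15.3, 16.4 and 16.5 CPM. Neither gene overlapped between the groups. ZNF638, which brings the HUSH silencing complex to unintegrated retroviral DNA, ZNF827, which recruits NuRD at telomeres, and ZNF274, which brings SETDB1 to the ends of other ZNF genes, had log2 fold changes of -1.17, -1.04 and -1.02, close to the fold threshold. ZNF445 completed the 6. ZNF592 and ZNF687, both members of a complex with ZMYND8, had log2 fold changes of -0.12 and -0.06 and their groups overlapped. ZNF335, the riser, was the remaining gene of the 9.

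Of 11 promoter-binding or cancer-linked regulators, 8 were called lower. ZNF148, which binds GC-rich promoters as ZNF281 does, went from 33.98, 41.8 and 35.5 CPM to 7.13, 7.76 and 9.27 CPM, 4.60-fold lower. ZNF292 had a log2 fold change of -1.89 and ZNF143, an activator of snRNA and many protein-coding promoters, one of -1.55. ZNF217, an oncogene candidate of breast cancer, had one of -1.15 and ZNF263 one of -1.06. ZNF281, ZNF746 and ZNF24 were the others called lower. ZNF384 fell by less than the threshold. ZNF703, a breast cancer gene, had a log2 fold change of -0.53 with overlapping groups, and ZNF395, a gene induced by low oxygen, one of -0.26, and neither passed the adjusted p of 0.01 (0.025 and 0.022 in edgeR).

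The members were next described by the structure of their proteins. A coding transcript could be translated for 187 of the 193 members from an annotation lifted to GRCh37 (GENCODE v44), and 183 of the 187 held at least 1 C2H2 finger pattern, against 4.46% of all 20561 genes translated in the same way. A KRAB A box pattern was found in 92 members, and a diverged KRAB domain can be missed by it. Among the 92, 74 were called lower in GO-Rg3-DOX against GO-Rg3, with a median log2 fold change of -1.54, and 10 stayed within the interval. Among the 95 without the pattern 54 were called lower, with a median of -1.14, and 24 stayed within the interval. With the GC content offset the counts called lower were 55 of the 92 and 50 of the 95, so that the gap between the sets was smaller. ZNF335, ZNF367 and ZNF646, which rose, were among the 95. By number of fingers, 1 of 4 members without a finger pattern was called lower, 19 of 32 with 1 to 4 fingers, 29 of 54 with 5 to 9, 54 of 67 with 10 to 14 and 25 of 30 with 15 or more. The medians of the last 4 groups were -1.21, -1.10, -1.51 and -1.47.

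By position, 54 of the 63 members on chromosome 19 were called lower, with a median log2 fold change of -1.76, and 77 of the 129 on other chromosomes, with a median of -1.17. With the GC content offset 43 of the 63 were called lower. All 63 members on chromosome 19 had a negative log2 fold change. On chromosome 19, 40 of 45 members with the KRAB pattern (median -1.51) and 13 of 17 without it (median -1.998) were called lower. On other chromosomes the counts were 34 of 47 (median -1.55) and 41 of 78 (median -1.06), so that the lowest share was that of members with neither feature. Divided where neighboring members lay over 2 Mb apart, chromosome 19 held 8 stretches with members. The stretch at chr19:35168544-37019173 held 4 members, from ZNF302 to ZNF260, and all 4 were called lower with a median of -2.97. All 8 members at chr19:40534167-45004576 were called lower too, with a median of -2.10. The KRAB pattern was found in 2 of them, and members without it, here and in the counts above, may hold a diverged KRAB domain. The medians of the other stretches with 8 or more members were -1.45, -1.51, -1.32 and -1.94. Neighboring genes are not independent, and these splits were not tested.

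**Figure D5:**
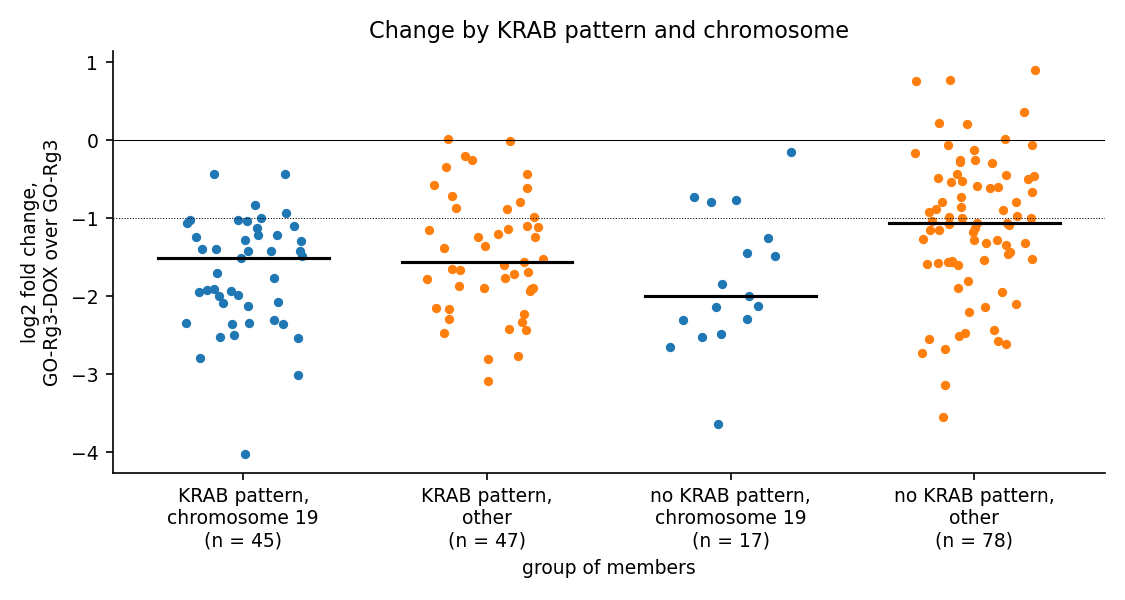
Log2 fold change of GO-Rg3-DOX over GO-Rg3 for members with or without a KRAB A box pattern, on chromosome 19 (blue) or another chromosome (orange); each point is 1 gene and each line the median of its column, and points are spread sideways to be seen. The medians are -1.51, -1.55, -1.998 and -1.06 from left to right, and all genes above 0.1 stand in the last column.

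GO-Rg3-DOX was also compared with bare GO, which had been given at 400 µg/mL. Of the 193 members 113 were called lower and 1 higher, against 18.4% lower and 9.52% higher among all genes tested, and 18.6% and 4.72% at 10 CPM or more. The median log2 fold change was -1.26. Of the 132 members called lower against GO-Rg3, 108 were called lower against GO as well, and 5 members were called lower only against GO. The member called higher was ZNF367, at 28.3, 31.6 and 32.2 CPM after GO and 65.7, 80.9 and 87.6 CPM after GO-Rg3-DOX, without overlap (log2 fold change 1.35, SE 0.11, edgeR adjusted p = 6.8e-08). ZNF335 and ZNF646 rose by 0.78 and 0.63 (edgeR adjusted p = 5.9e-05 and 0.0008) and ZNF664 by 0.50 (adjusted p = 0.00051). ZNF664 was at 124, 158 and 154 CPM after GO, its lowest group. Without both libraries with the most mitochondrial counts, 1 of them a GO library, 120 members were called lower.

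GO-Rg3 was compared with GO at the same dose to ask whether the members differed between the carriers with and without Rg3. Here 0 members were called lower and 2 higher, against 2.07% lower and 0.702% higher among all genes tested, and 0.802% and 0.683% at 10 CPM or more. At the adjusted p alone 8 members were lower and 18 higher, against 1068 and 1253 of the 17092 genes tested and 549 and 1105 of the 9223 at 10 CPM or more. The 95% interval lay within -1 and 1 for 176 members, and for 8578 of the 9223 genes at 10 CPM or more. The median log2 fold change was 0.14, against -0.02 over all genes tested and 0.05 over the 9030 other genes at 10 CPM or more. Without replicate 1 of GO the members' median was 0.09. The members called higher were ZNF254 and ZNF670. ZNF254, which holds the KRAB pattern, at chr19:24216207-24312770 on the plus strand, was at 6.11, 11.8 and 11.9 CPM after GO and at 19.6, 25.6 and 23.2 CPM after GO-Rg3 (log2 fold change 1.19, SE 0.19, edgeR adjusted p = 0.00058). ZNF670 was at 5.56, 11.2 and 10.5 CPM after GO and at 16.8, 21.0 and 20.9 CPM after GO-Rg3 (log2 fold change 1.10, SE 0.19, edgeR adjusted p = 0.00085). In both genes the groups were apart and replicate 1 of GO was the lowest library. Without replicate 1 of GO the log2 fold changes were 0.94 and 0.85, still past the adjusted p in edgeR (0.00021 and 0.00024), and 0 members were called higher. With only the 6 samples compared the adjusted p rose to 0.013 and 0.018. ZNF670 shares sequence with ZNF695, its reference entry is a read-through of both genes, and its count is uncertain.

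The third-highest member, ZNF277, was at 4.23, 7.84 and 6.93 CPM after GO and 9.92, 15.2 and 12.5 CPM after GO-Rg3 (log2 fold change 0.97, SE 0.20, edgeR adjusted p = 0.0031). Without replicate 1 of GO its log2 fold change was 0.76. The 3 lowest members were ZNF395, ZNF160 and ZNF217. ZNF395 was at 63.0, 60.3 and 60.9 CPM after GO and 32.2, 29.5 and 30.4 CPM after GO-Rg3, without overlap (log2 fold change -0.999, SE 0.09, edgeR adjusted p = 4.2e-06). Its value lay just short of the fold threshold, and its annotation shares sequence with FBXO16. ZNF160 was at 27.1, 33.3 and 33.2 CPM against 16.4, 19.8 and 20.2 CPM, and ZNF217 at 89.5, 105 and 110.9 CPM against 64.3, 70.7 and 64.5 CPM, also without overlap. Their log2 fold changes were -0.73 and -0.62, and both missed the adjusted p of 0.01 in edgeR under library totals alone (0.034 and 0.024). Without replicate 1 of GO they were -0.82 and -0.70. In all 3 the GO-Rg3 libraries were nearer to the untreated ones, which were 32.6, 32.3 and 33.3 CPM for ZNF395.

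GC content moved with this comparison. The representative transcripts of the members had a median GC content of 43.3%, against 47.4% in the other genes at 10 CPM or more. Across the 192 members with a GC value, Spearman's rho between GC content and the log2 fold change in GO-Rg3 against GO was -0.53, and across 8947 other genes -0.58. For GO-Rg3-DOX against GO-Rg3 the values were 0.21 and 0.36. These describe genes within the same libraries, and genes are not independent replicates. The 15 members in the chromosome 19 stretch from ZNF101 to ZNF254 (chr19:19779605-24312770), 14 of them with the KRAB pattern, had a median of 0.43 in GO-Rg3 against GO. With an offset for GC content, 104 of the 132 members and 5 others were called lower in GO-Rg3-DOX against GO-Rg3, the median was -1.19, and 60 members stayed within the interval. The part of GC content was not tested further.

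Values against untreated cells are descriptions, because the untreated libraries chose the members. After GO 6 members were past the call rule as lower and 0 as higher, against 2.62% and 3.84% of all genes tested. With single samples left out 5 to 9 members were past it as lower. The 6 were ZNF670, ZNF277, ZNF254, ZNF124, ZNF852 and ZNF92, with log2 fold changes of -1.77, -1.38, -1.31, -1.26, -1.25 and -1.20, and they are named here after their values were seen. ZNF670 was at 31.3, 31.0 and 31.3 CPM in untreated cells. After GO-Rg3 0 members were past the rule in either direction, against 0.0468% and 0.0117% of all genes tested. The interval lay within -1 and 1 for 192 of the 193, and for 9035 of the 9223 genes at 10 CPM or more. After GO-Rg3-DOX 129 were lower and 1 higher, against 18.2% and 12.6%. The 1 was ZNF646, at 30.5, 27.5 and 28.5 CPM in untreated cells, with a log2 fold change of 1.001. The median log2 fold change from untreated cells was -0.14 in GO cells and 0.04 in GO-Rg3 cells. It was -1.39 in GO-Rg3-DOX cells. Over the 9030 other genes at 10 CPM or more the medians were -0.10, -0.01 and -0.16 in the same order. Without replicate 1 of GO the members' median in GO cells was -0.09.

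The corepressors through which KRAB proteins act were read beside the members, without a test of the difference between the lists. Of 21 genes of this machinery, 3 (14.3%) were called lower and 1 higher in GO-Rg3-DOX against GO-Rg3, against 18.1% and 12.6% of all genes tested, so the share called lower was near that of all genes. The median log2 fold change was -0.17. At the adjusted p alone 7 of the 21 fell and 8 rose, against 5074 and 4682 of the 17092 genes tested. Among the 9223 genes at 10 CPM or more 3603 fell and 2695 rose. TRIM28, the scaffold that KRAB domains bind, was at 789, 442.5 and 588 CPM after GO-Rg3 and at 1291, 1036 and 1068 CPM after GO-Rg3-DOX, without overlap (log2 fold change 0.90, SE 0.17, edgeR adjusted p = 0.00023). The NuRD subunit CHD3, which binds TRIM28, was the gene called higher, at 114, 113 and 108.5 CPM against 315, 248 and 239 CPM (log2 fold change 1.26, SE 0.11, edgeR adjusted p = 1.4e-07). SETDB1, which writes the repressive H3K9 methylation, was called lower, at 30.8, 34.3 and 30.6 CPM against 14.1, 17.0 and 14.2 CPM (log2 fold change -1.08, SE 0.11, edgeR adjusted p = 4.5e-07). The other genes called lower were FAM208A (TASOR), the core of the HUSH complex, at -1.30, and the remodeler SMARCAD1 at -1.43.

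Of the NuRD subunits, HDAC1, MTA1, RBBP7 and CHD4 rose by 0.72, 0.76, 0.55 and 0.46 on the log2 scale, while RBBP4 (0.06), HDAC2 (0.22) and MTA2 (-0.18) did not pass the adjusted p. CBX1, an HP1 protein, and the maintenance methyltransferase DNMT1 rose by 0.37 and 0.38, but had values of -0.07 and -0.06 under library totals alone. CBX3 and CBX5, the other HP1 genes, had log2 fold changes of -0.20 and -0.17 and did not pass. With the GC content offset CBX3 had a value of 0.44 and passed as higher, and under library totals alone RBBP4 had one of -0.39 and passed as lower. The remaining falls at the adjusted p alone were those of ATF7IP (-0.66), the partner that stabilizes SETDB1, UHRF1 (-0.63), which guides DNMT1, and the HUSH-linked MORC2 (-0.59) and MPHOSPH8 (-0.39). PPHLN1, another HUSH subunit, was at -0.24 and did not pass. Under library totals alone 6 of the 21 were called lower and 0 higher, with CHD3 at 0.80. TRIM28 at 0.45 and HDAC1 at 0.27 then missed the adjusted p of 0.01 in edgeR (0.014 and 0.020).

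Other zinc finger genes were read beside the members by symbol. Of the 244 tested ZNF genes below 10 CPM, 128 were called lower and 6 higher in GO-Rg3-DOX against GO-Rg3, with a median of -1.21. Among all genes tested 18.1% were called lower and 12.6% higher in that comparison. Of 39 ZBTB genes, whose BTB domain replaces KRAB, 24 were called lower and 0 higher. The counts were 9 lower and 1 higher of 16 ZSCAN genes, 5 lower of 7 ZKSCAN genes, and 11 lower and 1 higher of 13 ZFP genes. Together these 75 genes had 49 called lower, 2 higher and a median of -1.30. In GO-Rg3 against GO the 75 had 0 called lower and 1 higher, and the ZNF genes below 10 CPM 0 and 3. Among all genes tested 2.07% were lower and 0.702% higher there, so these few calls are not read as a result.

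Some of the values carry limits of counting. Of the 193 members, 56 share exon positions with a gene on the opposite strand and 40 with a gene on the same strand. In 9 members at least 10% of 150-base windows of the transcript also occur in another counted gene, among them ZNF670, ZNF395, ZNF180 and ZNF512. In addition, 4 members, ZNF767, ZNF252P, ZNF542 and ZNF271, are annotated as pseudogenes, of which 2 were called lower, and ZNF280B had no entry in the annotation used here. Of the genes described in full, ZNF792, ZNF260, ZNF639, ZNF691, ZNF335, ZNF367 and ZNF281 overlap no other counted exon, while ZNF646 overlaps PRSS53 and another gene on the opposite strand and ZNF664 overlaps CCDC92 and FAM101A.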

How the data were processed

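Per the labels and the study's methods, RNA was extracted from Huh7 cells and stranded mRNA libraries were sequenced. The NGI-RNAseq pipeline and the GRCh37 build are named there. The authors counted reads per gene with featureCounts and deposited raw counts, not normalized. The annotation release and counting options are not given in the sources used here.

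A gene needed 10 or more counts in 3 or more samples (17092 passed). One model of the 12 samples, scaled by TMM, was fitted with edgeR 4.0.16 (R 4.3.3) and its quasi-likelihood test. Calls required a Benjamini-Hochberg adjusted p under 0.01 and a log2 fold change beyond 1 in either direction. Levels are TMM-scaled CPM. DESeq2 1.42.0, other scalings, filters, thresholds and member definitions, a GC content offset, the replicate number as a block and left-out samples were alternatives.

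Named are the 10 lowest and 10 highest members in GO-Rg3-DOX against GO-Rg3, the 5 most abundant and 5 most abundant within the interval, ZNF281, the 3 lowest and 3 highest in GO-Rg3 against GO, those next to the threshold and the corepressors. Genes chosen by role were added after their values were seen. The members and lists were chosen with earlier results of these data known. Transcript features came from GENCODE v44 lifted to GRCh37. Python 3.11.15 and pandas 2.3.3 were used for the tables.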

Additional observations from a re-analysis of the deposited data

How the results depend on the processing

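The count of members called lower was between 105 and 167 in both GO-Rg3-DOX comparisons between treated groups over every alternative that kept the members, DESeq2 calling 128 of the 132 and 112 of the 113. In the order GO-Rg3-DOX against GO-Rg3, against GO and against untreated cells, the medians were -1.80, -1.56 and -1.81 under library totals alone, with 0.28 in GO-Rg3 against GO and -0.25 in GO against untreated cells, and -1.67, -1.58 and -1.66 without mitochondrial genes in the totals. They were -1.19, -1.09 and -1.10 with the GC content offset, -1.19, -1.09 and -1.11 with that offset and the replicate block, and -1.16, -0.97 and -1.15 for the 110 members at 20 CPM or more. Against GO and untreated cells they were -1.15 and -1.22 for members chosen over all 12 samples. Against untreated cells the median was -1.24 for all 437 tested ZNF genes, -1.47 without a filter, -1.28 without both libraries with the most mitochondrial counts (chosen after seeing the data), and -1.41 to -1.28 with single samples left out, the last without replicate 1 of GO-Rg3-DOX. Library totals alone moved the median of all genes in GO-Rg3-DOX against GO-Rg3 to -0.45 and the calls over all genes to 4983 lower and 889 higher, from 3097 and 2146. The members lay 1.35 and 1.36 under the median of all genes in these settings.

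In GO-Rg3-DOX against GO-Rg3, members called higher numbered 3 without a fold threshold, 1 with the GC content offset (ZNF367, with or without the replicate block), 1 without both mitochondria-rich libraries, and 0 to 1 with single samples left out. Members within the interval numbered 16 under library totals, 22 without mitochondrial genes and 60 with the GC offset, with or without the block. Corepressors called lower and higher were 7 and 8 without a fold threshold, 6 and 0 under library totals, 1 lower with the GC offset (both fits), 0 higher without mitochondrial genes, and 1 to 2 higher with single samples left out. Values of single named genes were followed in GO-Rg3-DOX against GO-Rg3 and, for the 3 lowest and 3 highest members, in GO-Rg3 against GO. The other comparisons were not followed gene by gene. All changes of sign were in GO-Rg3-DOX against GO-Rg3. Under library totals CBX1 and DNMT1, past the adjusted p before, went to -0.070 and -0.062, and HDAC2, RBBP4, ZNF326, ZNF511, ZNF664, ZNF76 and ZNF789 to -0.23, -0.39, -0.42, -0.080, -0.22, -0.23 and -0.41. Without mitochondrial genes in the totals HDAC2, RBBP4, ZNF326, ZNF664, ZNF76 and ZNF789 went to -0.10, -0.26, -0.29, -0.086, -0.097 and -0.29. With the GC offset CBX3, CBX5, PPHLN1, ZNF259, ZNF436, ZNF511 and ZNF76 went to 0.44, 0.19, 0.17, 0.12, 0.22, -0.0092 and -0.082, and with the block as well to 0.44, 0.17, 0.17, 0.12, 0.22, -0.010 and -0.085. ZNF436 was 0.035 in DESeq2, 0.034 under RLE scaling, 0.023 with 10 counts in every sample and 0.067 without the mitochondria-rich libraries, where ZNF326 was -0.012. Without a filter RBBP4, ZNF326 and ZNF789 were -0.018, -0.051 and -0.055. With single samples left out ZNF326 ran from -0.031 to 0.074, ZNF436 from -0.071 to 0.066 and ZNF789 from -0.13 to 0.16. In GO-Rg3-DOX against GO, 4 were higher without a fold threshold. In GO-Rg3 against GO, members called higher numbered 0 at an adjusted p of 1e-04, 18 without a fold threshold (8 lower), 4 under library totals, 1 with the GC offset (both fits), 0 with only the 6 samples or without the mitochondria-rich libraries, and 0 to 5 with single samples left out, 5 without replicate 2 of GO and 4 without replicate 1 of GO-Rg3. Called lower were 1 without mitochondrial genes, with 10 counts in every sample, with the replicate block and with only the 6 samples, and 0 to 1 with single samples left out. In GO against untreated cells 2 were lower at 1e-04, 35 lower and 18 higher without a fold threshold, and 3 and 3 with the GC offset (both fits). Against untreated cells, members higher after GO-Rg3-DOX were 3 without a fold threshold, 0 under library totals, without mitochondrial genes and without a filter, and 0 to 1 with single samples left out. The cause was not tested.

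Deviations of same-numbered samples correlated at -0.02 to 0.25 (mean 0.09), and those of other pairs at -0.26 to 0.21 (mean -0.05). The ranges overlapped while the means differed, and whether the replicate numbers pair the samples was not tested. Apart from the call named above, the replicate block kept the counts of members called within 1.5 times. Over all genes, calls lower in GO-Rg3 against untreated cells went from 8 to 21. Of the values of single genes under alternatives, 1129 kept direction and side of the adjusted p of 0.01, 26 gained and 43 lost it, and 44 changed sign. The lowest count of a member in any library was 12, and the part of sequencing depth was not tested.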
